A study of Mus musculus with 2 samples.

Results

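The genes described here encode cell-surface receptors for metabolites, nucleotides and lysophospholipids, orphan receptors, and a few membrane proteins that share the *Gpr* name. They were taken by symbol alone: *Gpr*, *P2ry*, *P2rx*, *Lpar*, *S1pr*, *Ffar*, *Hcar* or *Gprc* followed by a number, with 1 receptor left out by the rule, plus *Sucnr1*, *Oxgr1* and the adenosine receptors. This gave 96 of the 18193 genes that had a probe set annotated to 1 symbol alone. Of the adenosine receptors, *Adora3* was among them, and *Adora1*, *Adora2a* and *Adora2b* were not analysed here. A pseudogene of *Gpr137b* was not counted.

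Signals came from 2 Affymetrix mouse genome arrays, 1 for each genotype, hybridised with RNA from perigonadal WAT of female 30-week-old mice on the C57BL/6 background. The Tg mice were heterozygous for human PeriA under the aP2 promoter/enhancer, described as adipocyte specific, and the WT mice were littermates without the transgene. Both groups were fed a HFD and fasted overnight before tissue harvest. RNA of 3 mice was combined before each hybridisation, so no spread between mice can be given and no difference was tested. The signal log ratio is log2 (Signal of Tg/Signal of WT), and the methods selected probe sets over 0.3 or under -0.3. Where a gene had several probe sets, the one with the highest mean log2 signal stands for it. Signals of different probe sets are on scales of their own, so levels are not compared between genes, and a signal summed over a marker list is set mainly by its brightest probe sets.

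Most of these receptors thread through the cell membrane several times and act through heterotrimeric G proteins. Those coupled to inhibitory G proteins lower cyclic AMP and, in adipocytes, restrain lipolysis. Receptors for lactate, ketone bodies, succinate and fatty acids let a fat cell sense the products of its own metabolism. Nucleotide receptors respond to ATP, ADP, UDP and UDP-glucose released from stressed or dying cells, and several are typical of macrophages. The P2X members are ATP-gated ion channels, not G protein-coupled receptors.

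A signal above the array's own median, 101.1 for WT and 95.4 for Tg, was required on both arrays before a gene was counted. Of the 96 genes, 41 were above it on both arrays, 8 on 1 array and 47 on neither. Among the 41, 10 had a signal log ratio over 0.3, which is 24.4%, against 15.3% of all 10857 genes above both medians. Under -0.3 were 8 of the 41, or 19.5%, against 14.8% of all genes. The other 23 lay between. The same shares of all genes are the background for the role, marker and pathway lists below. The median was 0.02 for the receptor genes and also 0.02 for all genes. Past a 2-fold change, 1 receptor gene was over 1 and none was under -1, against 0.368% and 0.866% of all genes. After median centring of the arrays, the counts were 12 over 0.3 and 6 under -0.3, and the shares of all genes 23.9% and 10.8%. With the median replaced by the 75th percentile of each array, 1 of 15 receptor genes (6.67%) was over 0.3, against 12.5% of all genes, and 4 (26.7%) were under -0.3, against 9.49%. The 75th percentile was exceeded on both arrays by 15 of the 41 receptor genes and by 6545 of the 10857 genes. Bright probe sets were thus rarer among the receptor genes, and the part of signal level in their shares was not tested. The requirement on both arrays leaves out a gene that is bright on one array only, and these are described separately.

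**Figure D1:**
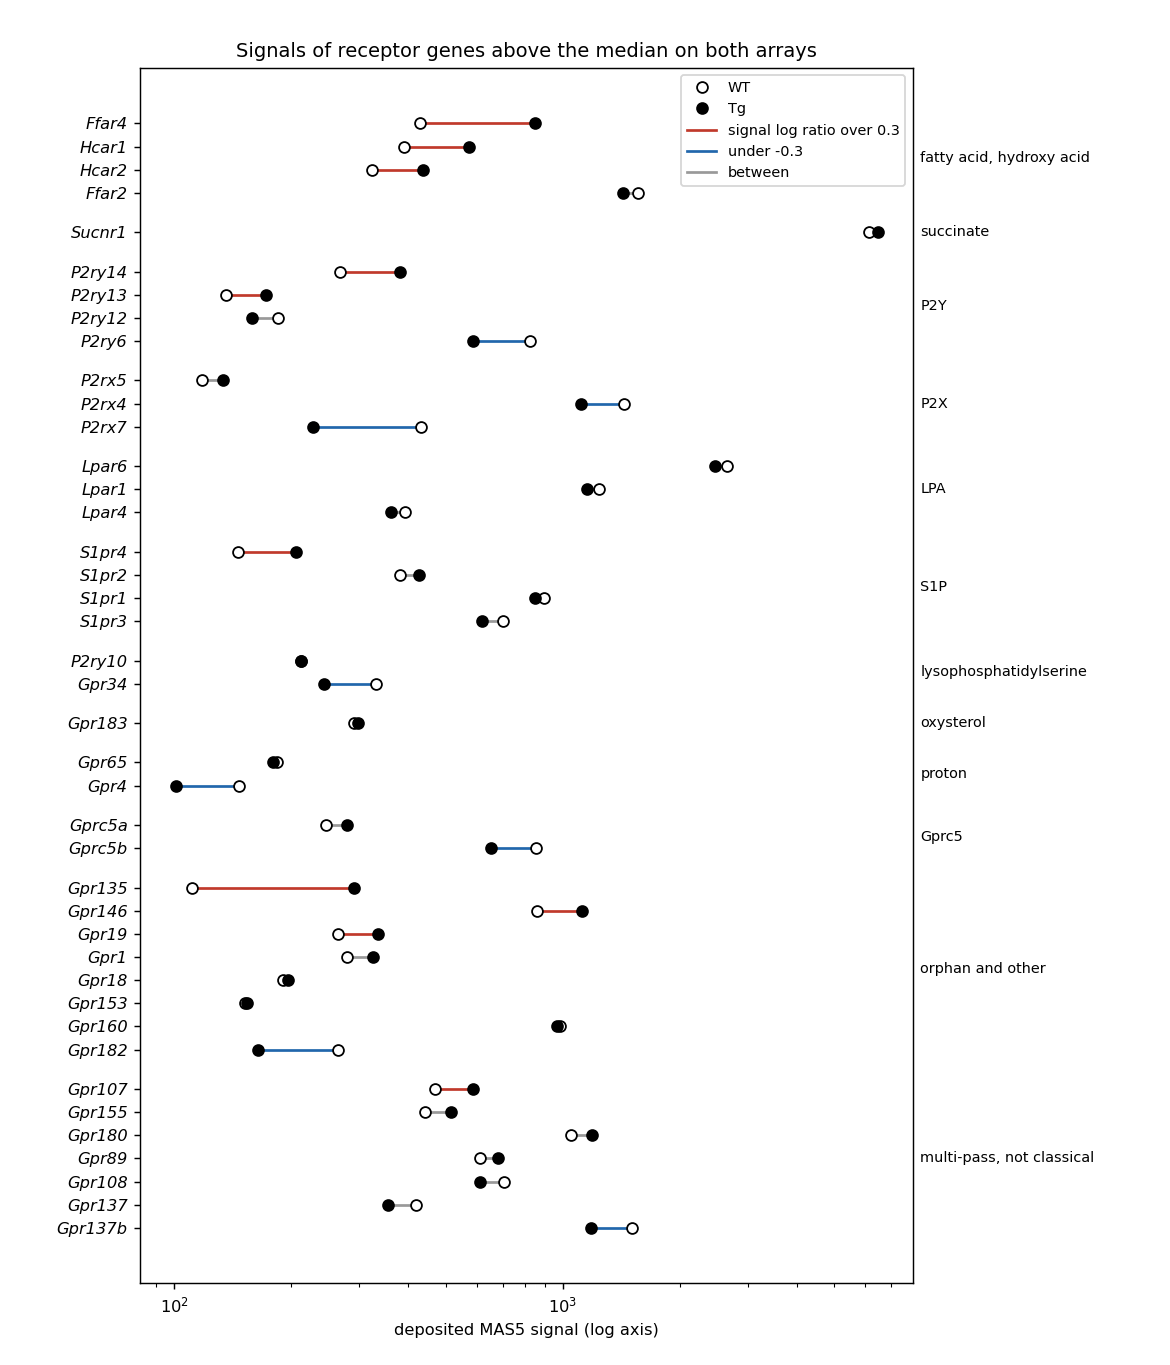
Deposited signals (log axis) of the 41 receptor genes above the median on both arrays, grouped by role, with the WT array as open and the Tg array as filled points, 1 array of pooled RNA each. Red lines join the 10 genes over 0.3 in signal log ratio, blue lines the 8 under -0.3; *Ffar4*, *Hcar1* and *Hcar2* are all brighter in Tg, *P2rx7*, *P2rx4* and *P2ry6* all dimmer.

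**Figure D2:**
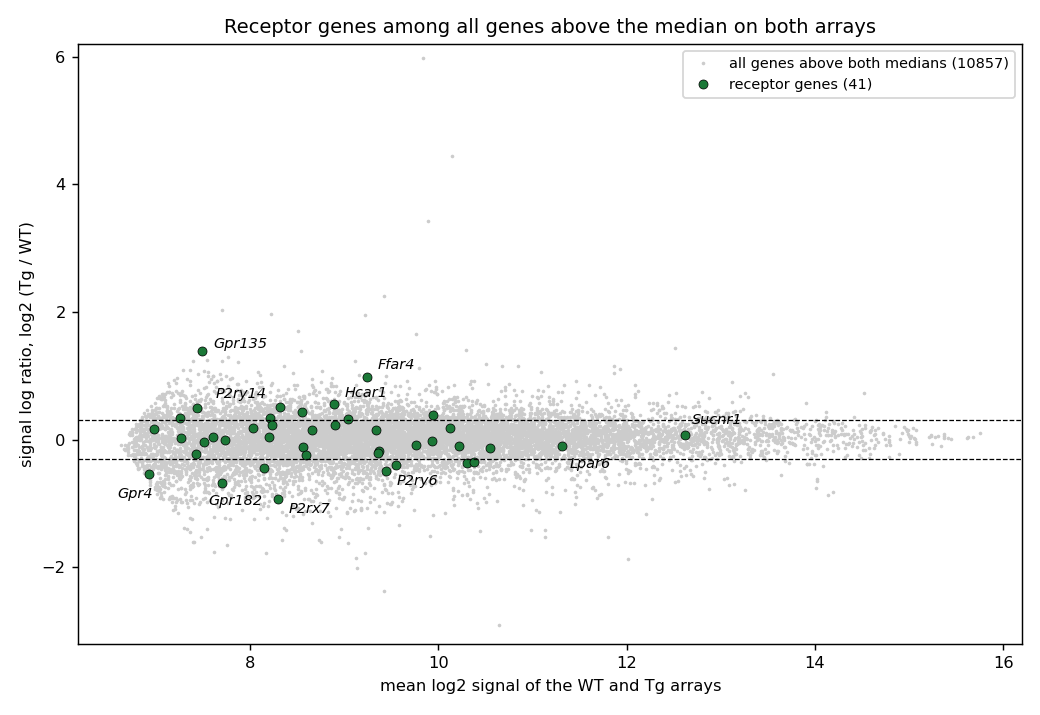
Signal log ratio (vertical axis) by mean log2 signal (horizontal axis) for 10857 genes above both medians (grey) and for the 41 receptor genes among them (green). Dashed lines mark 0.3 and -0.3; the receptor genes lie on both sides of 0, from -0.92 for *P2rx7* to 1.39 for *Gpr135*.

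The promoters of some of these genes are shown for the fatty acid and lactate receptors with higher signals in Tg and for *P2rx7* and *P2rx4*, neighbours on the same chromosome that both had lower signals. Each sequence is the stretch of 250 bases before an annotated start (RefSeq, GRCm38.p6), written from 5' to 3' along the gene's strand. *P2rx7* has 2 annotated starts here. Of the 96 genes, 74 had a promoter entry, and *Hcar2*, *P2ry6* and *Gpr34* had none. Capitals mark matches on either strand to AGGTCA, a nuclear receptor half-site, to TTGCNNAA, a C/EBP motif, or to GAGGAAGT, a PU.1 core.
Ffar4, chr19:38096829-38097078, strand +: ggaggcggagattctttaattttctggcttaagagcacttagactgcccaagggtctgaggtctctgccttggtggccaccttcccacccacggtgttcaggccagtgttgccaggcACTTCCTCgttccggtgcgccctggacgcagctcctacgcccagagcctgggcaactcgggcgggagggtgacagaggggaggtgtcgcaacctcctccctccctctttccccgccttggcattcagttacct
Hcar1, chr5:123880004-123880253, strand -: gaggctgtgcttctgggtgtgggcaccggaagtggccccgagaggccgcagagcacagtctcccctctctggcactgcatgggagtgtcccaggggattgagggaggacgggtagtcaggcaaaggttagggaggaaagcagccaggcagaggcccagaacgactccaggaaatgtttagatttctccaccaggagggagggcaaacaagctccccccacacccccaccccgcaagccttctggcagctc
P2rx7, chr5:122643677-122643926, strand +: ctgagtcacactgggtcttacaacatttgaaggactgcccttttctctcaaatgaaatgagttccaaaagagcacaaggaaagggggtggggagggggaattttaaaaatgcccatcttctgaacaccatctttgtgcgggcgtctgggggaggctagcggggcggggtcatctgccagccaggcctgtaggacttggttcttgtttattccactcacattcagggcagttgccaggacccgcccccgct
P2rx7, chr5:122650133-122650382, strand +: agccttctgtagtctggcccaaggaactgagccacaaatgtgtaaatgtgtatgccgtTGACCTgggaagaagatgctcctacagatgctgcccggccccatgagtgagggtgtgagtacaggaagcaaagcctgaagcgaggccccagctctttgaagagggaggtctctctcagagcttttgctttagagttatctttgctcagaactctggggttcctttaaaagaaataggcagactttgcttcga
P2rx4, chr5:122707294-122707543, strand +: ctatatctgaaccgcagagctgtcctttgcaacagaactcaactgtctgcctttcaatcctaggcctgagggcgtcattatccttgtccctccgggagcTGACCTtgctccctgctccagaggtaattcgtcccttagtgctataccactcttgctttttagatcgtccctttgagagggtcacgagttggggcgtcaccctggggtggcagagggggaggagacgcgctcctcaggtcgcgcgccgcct
AGGTCA was in the second *P2rx7* sequence and in that of *P2rx4*, both times on the opposite strand, as it was on either strand in 4607 of all 32851 promoters of this length. GAGGAAGT was in the *Ffar4* sequence, on the opposite strand, and in 2.44% of all promoters. TTGCNNAA, held by 9.56% of all promoters, was in none of those shown. A match of letters is a description and does not show that a factor binds there.

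Among receptors for fatty acids and hydroxycarboxylic acids, 3 of the 4 genes above both medians were over 0.3, against 15.3% of all genes. *Ffar4*, which encodes the receptor for long-chain fatty acids also called GPR120, gave 428.5 in WT against 849.4 in Tg. This was a ratio of 1.98 and a signal log ratio of 0.99, which among the 41 genes only *Gpr135* exceeded. *Hcar1*, the lactate receptor through which lactate restrains lipolysis, had 390.5 in WT against 574.3 in Tg (0.56). *Hcar2*, the receptor for β-hydroxybutyrate and niacin, had 322.4 in WT against 437.1 in Tg (0.44). *Hcar1* and *Hcar2* are neighbours on the chromosome. Each of these 3 genes had 1 probe set on the array, so no second reading exists.

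The receptors for short-chain fatty acids and succinate had nearly equal signals on both arrays. *Ffar2*, the receptor for acetate and propionate, had 1562 in WT against 1431 in Tg on its brighter probe set and 1001 in WT against 1151 in Tg on the other, giving log ratios of -0.13 and 0.20. *Sucnr1*, the succinate receptor, had 6144 in WT against 6451 in Tg (0.07). *Gpr84*, the receptor for medium-chain fatty acids, was below the median on both arrays, with 36.4 in WT against 36.9 in Tg. *Oxgr1*, the oxoglutarate receptor, had signals of at most 10.3. Of the receptors known from adipocytes or preadipocytes, *Hcar1*, *Hcar2*, *Ffar2*, *Ffar4*, *Sucnr1* and *Lpar1*, 3 of 6 were thus over 0.3 and none was under -0.3. Of all genes above both medians, 15.3% were over 0.3 and 14.8% were under -0.3. The list also held *Adora1*, *Adora2a* and *Adora2b*, which were not analysed here.

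Beside these stand the markers of adipocytes, all above the median on both arrays, with signals from 4204 to 51832 in WT and from 6234 to 53339 in Tg. Of 8 adipocyte markers, 2 were over 0.3, *Pparg* (0.57) and the lipase *Lipe* (0.53), 1 was under -0.3, *Lep* (-0.64), and the median was 0.10. The summed signal of the 8 was 195753 in WT against 203498 in Tg. Of 9 brown adipocyte markers, 5 were above both medians and all 5 were over 1. *Elovl3* and *Dio2* were above the median in Tg alone, and *Zic1* and *Lhx8* were below both medians, with signals of at most 13.8. The part of adipocyte number or type in the receptor values was not tested, and in bulk tissue fewer cells of a type and less RNA per cell cannot be told apart.

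The P2X channels above both medians were *P2rx7*, *P2rx4* and *P2rx5*, and 2 of these 3 were under -0.3, against 14.8% of all genes. *P2rx7*, the channel through which high ATP activates the inflammasome in macrophages, had 432.6 in WT against 228.1 in Tg (-0.92), the lowest log ratio of the 41 genes. Its dimmer probe sets had 226.0 in WT against 53.4 in Tg, and 71.3 in WT against 43.3 in Tg. The first of these was above the median in WT alone and the second on neither array. Only the brightest probe set thus passed the filter, and nothing is read from the ratios of the others. *P2rx4*, a channel of macrophages and endothelium that lies next to *P2rx7*, had 1438 in WT against 1117 in Tg (-0.36). Its other probe sets above both medians had signal log ratios of -0.85 and -0.14, both lower in Tg. The one at -0.14 is the brightest without the suffix for probes shared between transcripts. The last probe set of *P2rx4* was below both medians, with 66.6 in WT against 37.5 in Tg (-0.83). *P2rx5* had 118.3 in WT against 133.4 in Tg (0.17). With median centring, the brightest *P2rx4* probe set had -0.28.

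The P2Y receptors lay on both sides of 0. *P2ry6*, the UDP receptor, had 826.1 in WT against 587.9 in Tg (-0.49). *P2ry14*, the receptor for UDP-glucose, had 268.0 in WT against 381.3 in Tg (0.51). *P2ry13*, an ADP receptor, had 135.9 in WT against 172.1 in Tg (0.34), and 0.29 with a pseudocount. *P2ry12*, the other ADP receptor of this group and the target of antiplatelet drugs, had 185.3 in WT against 159.1 in Tg (-0.22). *P2ry12* and *P2ry13* are neighbours on the chromosome with values of opposite sign, and each of these 4 genes was read from a single probe set. *P2ry1*, a further ADP receptor, was above the median in WT alone, with 122.5 in WT against 88.9 in Tg.

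Lysophosphatidic acid receptors above both medians were *Lpar6*, *Lpar1* and *Lpar4*, and all 3 lay between -0.3 and 0.3. *Lpar6* had 2639 in WT against 2466 in Tg (-0.10), and *Lpar1*, which is known from preadipocytes, had 1238 in WT against 1154 in Tg (-0.10), with 0.11 and -0.38 on its other probe sets. *Lpar4* had 392.3 in WT against 360.7 in Tg (-0.12), but its other probe sets had 0.37 and -1.03. *Lpar3* was above the median in WT alone, with 105.1 in WT against 53.0 in Tg. Among the sphingosine 1-phosphate receptors, *S1pr4*, known from lymphocytes, had 145.8 in WT against 205.7 in Tg (0.50). *S1pr1*, the main endothelial receptor, had 895.1 in WT against 847.3 in Tg (-0.08). *S1pr3* had -0.18. *S1pr2* had 0.16 on its brightest probe set and -0.58 on the other. *Gpr34*, a receptor for lysophosphatidylserine on macrophages and mast cells, had 331.5 in WT against 243.4 in Tg (-0.45). *P2ry10*, another lysophosphatidylserine receptor, had 212.0 in WT against 211.7 in Tg.

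Of 2 proton-sensing receptors above both medians, *Gpr4*, known from endothelium, had 147.0 in WT against 100.9 in Tg (-0.54). The Tg value was only just above the median of its array. *Gpr65*, known from leukocytes, had 183.9 in WT against 179.4 in Tg (-0.04). *Gpr183*, the oxysterol receptor that guides B cells and other leukocytes, had 290.4 in WT against 297.8 in Tg (0.04). *Gpr182*, a chemokine-scavenging receptor of endothelium, had 264.1 in WT against 164.7 in Tg (-0.68). The 12 endothelial markers were all above both medians and included *Flt1* (0.32) and *Tie1* (-0.72) as those past the threshold. Their median was -0.08, with a summed signal of 13645 in WT against 12668 in Tg.

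A list of 10 receptors known from macrophages and other myeloid cells was examined. *Gpr84* was below both medians. Of the other 9, 4 were under -0.3 (*P2rx7*, *P2ry6*, *Gpr34* and *P2rx4*), 2 were over 0.3 (*P2ry14* and *P2ry13*), and *P2ry12*, *Gpr65* and *Gpr183* lay between. Their median was -0.22. Of all genes above both medians, 14.8% were under -0.3 and 15.3% were over 0.3. Of 19 macrophage markers, all above both medians, 13 were under -0.3 and none was over 0.3. Their median was -0.66, and their summed signal was 84248 in WT against 60532 in Tg. Single markers had signals from 251.5 to 22571 in WT and from 107.6 to 19118 in Tg. *Trem2*, a receptor of lipid-associated macrophages, had -1.85, whereas *Mrc1*, the mannose receptor of resident macrophages, had -0.004. The part of macrophage number in the values of *P2rx7*, *P2ry6*, *Gpr34* and *P2rx4* was not tested.

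Markers of lymphocytes and mast cells stand beside the receptors of those cells. Of the 6 T and NK cell markers above both medians, 2 were under -0.3 and none was over 0.3, with a summed signal over the whole list of 3304 in WT against 2507 in Tg. Of the 6 B and plasma cell markers above both medians, 3 were under -0.3 and none was over 0.3. The sums over that whole list were 8167 in WT against 7966 in Tg. Of the 5 mast cell markers above both medians, 2 were over 0.3, with sums over that whole list of 2638 in WT against 3129 in Tg. Of these lists, *Cd3e*, *Cd4*, *Cd8b1*, *Pax5* and *Ms4a2* were below both medians, and *Cd8a*, *Fcer1a* and *Hdc* were above the median on 1 array only. *S1pr4* was higher in Tg and *Gpr18*, known from lymphocytes, had 191.1 in WT against 197.0 in Tg, whereas the T and B cell markers had medians of -0.13 and -0.22. The part of these cells in the receptor values was not tested.

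**Figure D3:**
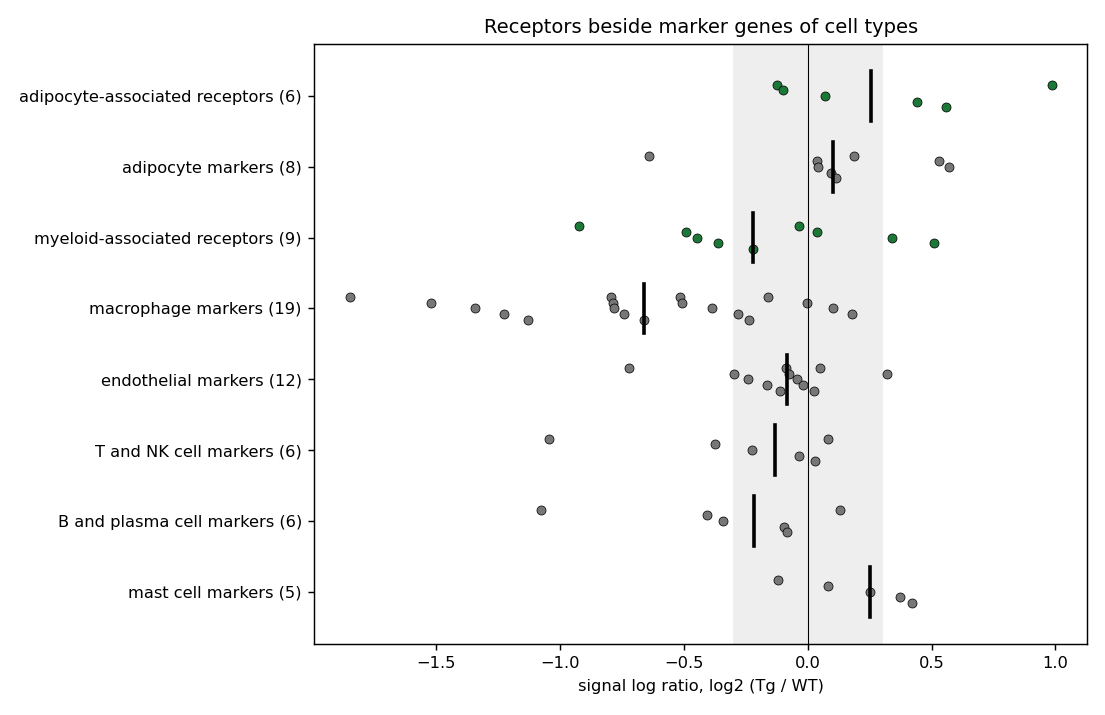
Signal log ratios of receptors (green) and of marker genes of cell types (grey) above the median on both arrays, one point per gene, with the number of genes in brackets and the median as a bar. The grey band covers -0.3 to 0.3, and height within a list has no meaning; the myeloid-associated receptors spread from -0.92 to 0.51 around a median of -0.22, and macrophage markers lie mostly to the left of the band.

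Among orphan and other receptors, 8 of 42 were above both medians, 3 of these were over 0.3 and 1, *Gpr182*, was under -0.3. The shares of all genes above both medians were 15.3% and 14.8%. *Gpr135*, an orphan receptor, had the highest signal log ratio of the 41 genes, with 111.3 in WT against 290.9 in Tg (1.39). Its second probe set had 120.1 in WT against 109.0 in Tg (-0.14), and the first carries the suffix for probes shared between transcripts, so the direction depends on the probe set. *Gpr146* had 856.9 in WT against 1122 in Tg (0.39), while its other 3 probe sets had values of at most 0.02. *Gpr19* had 263.8 in WT against 334.1 in Tg (0.34), and its other probe set 0.24. *Gpr1*, a chemerin receptor, had 278.9 in WT against 325.6 in Tg (0.22). *Gpr160* and *Gpr153* had -0.03 and 0.02.

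*Gprc5b*, an orphan receptor induced by retinoic acid, had 855.6 in WT against 652.7 in Tg (-0.39). Its other probe set was equally bright on both arrays, at 693.0 in WT against 692.4 in Tg. *Gprc5a* had 0.18. *Gprc5c* was above the median in Tg alone, with 45.2 in WT against 98.1 in Tg. Membrane proteins with *Gpr* names outside the classical receptor families, which sit on the Golgi, lysosomes and other internal membranes, had 7 of 8 genes above both medians. *Gpr107*, a protein of Golgi traffic, had 468.3 in WT against 588.8 in Tg (0.33). Of its 4 dimmer probe sets, the only one above both medians had 0.16. The others ranged from -0.66 to 1.74, the highest of these at 8.3 in WT against 27.8 in Tg. *Gpr137b*, a lysosomal protein, had 1507 in WT against 1180 in Tg (-0.35), and -0.27 with median centring. Its reads are uncertain, since 4 further probe sets are annotated to both *Gpr137b* and its pseudogene and had signal log ratios from -0.64 to 0.01. *Gpr180* had 1049 in WT against 1191 in Tg (0.18), and *Gpr155*, *Gpr89*, *Gpr108* and *Gpr137* lay between -0.24 and 0.22.

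Where a gene had several probe sets, they often disagreed. Of the 41 genes, 11 had at least 2 probe sets above both medians. In 6 of these 11 all such probe sets were on the same side of 0, and in 8 they spanned more than 0.3. The pooled SD between such probe sets of one gene was 0.45 for these 11 genes and 0.31 for all 4716 genes with at least 2. All these probe sets read a single pair of hybridised pools, so their spread says nothing of variation between animals. Of the 18 genes past the threshold, 10 had a single probe set on the array. For bacterial poly-A controls, labelled with the sample RNA, the signal log ratio at the 5' end minus that at the 3' end was taken. Its median was -0.55 over 8 pairs, so relative to the 3' end the 5' end was dimmer in Tg than in WT. For the 8 pairs of hybridisation controls the median was -0.005. Each control transcript appears in more than 1 of these pairs, so the pairs are not independent. Pairs of this kind for mouse transcripts were not examined. The part of this 5' to 3' difference in the differences between probe sets of one gene was not tested.

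**Figure D4:**
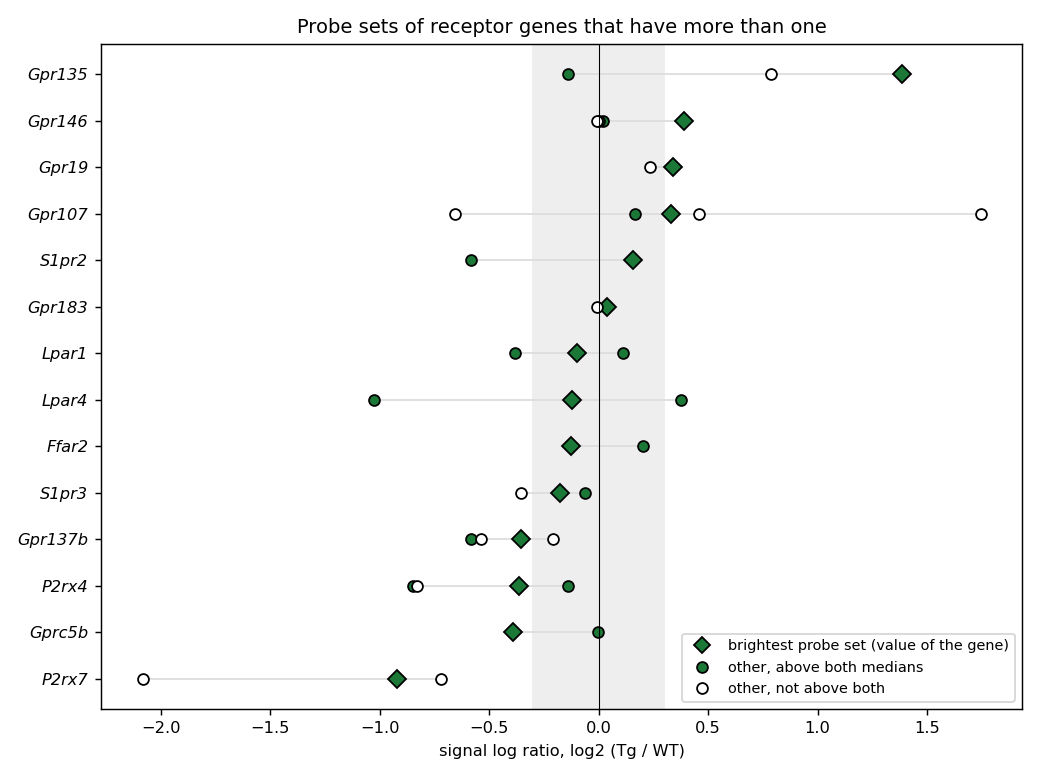
Signal log ratios of every probe set of the receptor genes above both medians that have more than one, one row per gene. Diamonds are the brightest probe sets, which give the value of the gene, filled circles other probe sets above both medians and open circles those that are not. Those of *P2rx7* and *P2rx4* are all left of 0, but for *P2rx7* only the brightest is above both medians. Those of *Gpr135* span -0.14 to 1.39.

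Of the 8 genes above the median on 1 array only, those not yet given are *Gpr162*, with 131.8 in WT against 73.6 in Tg, *Gpr176*, with 104.8 in WT against 80.7 in Tg, *Gpr85*, with 61.4 in WT against 101.0 in Tg, *P2rx6*, with 86.5 in WT against 110.5 in Tg, and *Gpr161*, with 92.2 in WT against 106.9 in Tg. A class that asks for a signal above the median on a single array favours unequal signals, so nothing is read from its ratios. The 47 genes below both medians had signals from 0.4 to 96.3 in WT and from 1.8 to 90.0 in Tg. Of these, 20 of 47 (42.6%) were over 1 or under -1, against 42.8% of all 6610 genes below both medians. With signals under 56.9 raised to that floor, 36 of the 47 had no difference at all. No signal of these genes exceeded 96.3, so with this floor none could be past a 2-fold change.

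Other genes of these pathways were taken from lists of known components. Of 10 genes for release and breakdown of extracellular nucleotides above both medians, 2 were over 0.3, 3 were under -0.3 and the median was 0.11. Of all genes above both medians, 15.3% were over 0.3 and 14.8% were under -0.3. *Nt5e*, the ectoenzyme CD73 that makes adenosine from AMP, had 110.3 in WT against 170.0 in Tg (0.62), and *Enpp3*, an ectonucleotide pyrophosphatase, had 0.45. *Slc29a1*, a nucleoside transporter that takes up adenosine, had 752.7 in WT against 248.6 in Tg (-1.60). *Ada*, adenosine deaminase, had -0.55, and *Entpd1*, the ectoenzyme CD39 that breaks down ATP and ADP, had -0.38.

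Of 8 genes of lysophosphatidic acid and sphingosine 1-phosphate metabolism above both medians, none was over 0.3 and 2 (25%) were under -0.3. The 2 were *Pla1a* (-0.41), a phospholipase that makes lysophosphatidylserine, and *Plpp2* (-0.37), a lipid phosphate phosphatase. Next were *Sphk2* (0.23), a sphingosine kinase, and *Sgpp1* (0.19), a sphingosine 1-phosphate phosphatase. Of 18 G protein subunits, 1 was over 0.3, *Gng4* (0.32), and 3 were under -0.3, *Gng2* (-0.62), *Gna12* (-0.45) and *Gng11* (-0.32). These are 5.56% and 16.7%, against 15.3% and 14.8% of all genes above both medians. The inhibitory subunits *Gnai1*, *Gnai2* and *Gnai3*, through which *Hcar1* and *Hcar2* signal, had 0.22, 0.06 and 0.14. Of 5 arrestins and receptor kinases, 1 (20%) was under -0.3, *Arrb1* (-0.45), and *Grk5*, *Grk3* and *Arrb2* had -0.25, -0.24 and 0.07.

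RGS proteins, which end G protein signals by speeding GTP hydrolysis, had 12 of 19 genes above both medians. Of these 12, 6 (50%) were under -0.3 and 1 (8.33%) was over 0.3, against 14.8% and 15.3% of all genes. *Rgs1*, *Rgs14* and *Rgs18*, known from leukocytes, had -0.91, -0.78 and -0.54. *Rgs7* had 314.4 in WT against 588.9 in Tg (0.91). The median of the 12 was -0.29. Of 9 adrenergic receptors listed, only *Adra1b* and *Adra2c* were analysed, and both were below both medians. The others were not analysed here, so nothing is said of their signals.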

How the data were processed

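Perigonadal WAT of Tg and WT mice was profiled on arrays, with RNA of 3 mice pooled for each of the 2 arrays. The deposited intensity values are the authors' MAS5 signals from GeneChip Operating Software, on a linear scale, with a trimmed mean (fraction of 0.02 left out at each end) of 500.0 on both arrays. The table holds all 45101 probe sets, and the Present calls of the methods were not used here. Controls (64 probe sets) entered no gene count. Of the others, 34945 were annotated to 1 symbol (platform annotation), 932 to several and 9160 were not listed. The signal log ratio was taken from the deposited signals without pseudocount or further scaling. The filter on the array's own median replaces detection calls. With 1 array per group no test was possible, and the number of arrays limits the precision.

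The members, role groups, marker lists and pathway lists were chosen with earlier results of these data known. Named are members past 0.3 or -0.3, the brightest of each role and those with the highest mean signals, adipocyte- and myeloid-associated receptors, members above the median on 1 array and past a 2-fold change, and up to 4 genes of each pathway list above both medians with the largest ratios. *Entpd1*, the *Gnai* genes, the adrenergic receptors, and other members and markers were named after their values were seen. The lists of epithelium, nerve, fibroblast and smooth muscle markers were also examined: above both medians, 1 of 2, 1 of 1, 1 of 8 and 1 of 8 were over 0.3, and 0, 0, 1 and 2 were under -0.3. The 13 alternatives comprised scaling (median centring, quantile, loess with a span of 0.3), a pseudocount of 25.1, a floor of 56.9, the filters, the choice of probe set and rounding. The ratio and the scalings were tested on simulated data in which one array was dimmed as a whole: each scaling removed that offset, whereas the unscaled ratio, which gives the values of the report, kept it. Python 3.11.15, numpy 2.4.6, pandas 2.3.3, scipy 1.17.1 and statsmodels 0.14.6 were used.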

Additional observations from a re-analysis of the deposited data

How the results depend on the processing

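The counts depended most on the filter and the probe set. Without a filter, 35 of 96 genes were over 0.3 and 24 under -0.3 (36.5% and 25%, against 24.6% and 25% of all genes), with a median of 0.10 against 0.02. With the filter at the 75th percentile, 1 of 15 was over and 4 were under (6.67% and 26.7%, against 12.5% and 9.49%), with a median of -0.10 against 0.04. On second-brightest probe sets, 1 of 11 was over and 3 were under (9.09% and 27.3%, against 15.4% and 22.3%). Under these last 2 settings the share over 0.3 was below that of all genes. Median centring gave a median of 0.10, beside 0.11 for all genes. With median centring and the remaining alternatives, 7 to 12 of 37 to 48 genes were over 0.3. Their shares were 17.1% to 29.3%, against 11.8% to 23.9% of all genes. Under -0.3 were 6 to 12 genes, with shares of 14.6% to 25%, against 10.8% to 18.5% of all genes. With the median over probe sets, the share under -0.3 was 15%, below the 18.5% of all genes. *Gpr135* had -0.14 on its second-brightest probe set, which is also its brightest without a suffix for shared transcripts. The fatty acid and hydroxycarboxylic acid receptors had a median of -0.13 under the stricter filter, which left *Ffar2* alone. Under the scalings, the pseudocount and the floor, 9 of the 10 genes over 0.3 (all but *P2ry13*) and 6 of the 8 under -0.3 (all but *P2rx4* and *Gpr137b*) stayed past the threshold. Low signals and 1 array per genotype limit what can be said of the genes below the median.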
